A study of Mus musculus with 24 samples.

Results

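Ppargc1a, Pdpr, Kcnq5 and Gfod1 are 4 of the 12091 genes measured by RNA sequencing in mouse breast cancer cells and tumors in which pleiotrophin (Ptn), a secreted heparin-binding growth factor, was depleted or blocked. They were selected on their large fall in E0771-LG cells after Ptn knockdown, so their values in that comparison are given as a description, without a test, and are used to support nothing. The comparisons that the selection did not use are the knockdown in the parental E0771 line and the antibody treatment of MMTV-PyMT and 4T1 tumors, and these were tested. The question addressed is which of the losses also occurred in the parental line or in tumors and which were seen in E0771-LG cells alone.

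E0771 is a mammary carcinoma line of C57BL/6 mice, and E0771-LG was derived from a lung metastasis of E0771. Each line was transduced with the pLKO.1-puro vector carrying either an shRNA against Ptn (shPTN) or a control shRNA against EGFP (shCtrl), and was kept in puromycin at 3 µg/ml for 6 weeks. MMTV-PyMT tumors arose in FVB/N mice that carry the polyoma middle T antigen under a mammary tumor virus promoter; 3B10, a monoclonal antibody against Ptn, or the mouse IgG control C44 was given at 15 mg/kg from 8 weeks of age, and tumors were taken at 12 weeks. 4T1 tumors grew from cells implanted in the mammary fat pad of BALB/c females at 8 weeks, with the same antibodies at the same dose. Each of the 8 groups held 3 samples. In the 18 samples other than 4T1 between 15.6 and 21.1 M (mega) reads fell on genes (median 18.3 M), and values are log2 CPM, reads scaled to 1 M reads of the sample. The 4T1 values are on another scale, from which reads could not be recovered, so their depth is unknown and they are compared only with each other. Only 1 shRNA against Ptn was used, and the shPTN and shCtrl cells are separately selected populations, so an effect of Ptn loss cannot be told apart from other effects of that shRNA or of the selection.

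Ppargc1a encodes PGC-1alpha, a transcriptional coactivator that works with nuclear receptors such as the estrogen-related receptors to raise mitochondrial biogenesis, oxidative metabolism and fatty acid use. Pdpr encodes the regulatory subunit of pyruvate dehydrogenase phosphatase, which acts on the gate between glycolysis and the citric acid cycle: kinases (Pdk) switch the pyruvate dehydrogenase complex off by phosphorylation and phosphatases (Pdp) switch it on. Gfod1 encodes a protein with the fold of glucose-fructose oxidoreductases whose function is little known, and Kcnq5 encodes a voltage-gated potassium channel subunit of the M-current, best known in neurons and smooth muscle, so that Kcnq5 is not a metabolic gene by its known role.

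Ptn itself was checked first. In E0771 it was at 2.90, 2.18 and 2.28 in shCtrl cells and at −0.63, 0.25 and 0.53 in shPTN cells, and in E0771-LG at 3.65, 4.51 and 3.74 in shCtrl cells and at 1.42, 0.98 and 1.38 in shPTN cells. The target was lower in all shPTN samples of both lines. The log2 change was −2.40 (SE 0.37, limma adjusted p = 0.00159) in E0771 and −2.71 (SE 0.28, limma adjusted p = 6.30e-05) in E0771-LG. In MMTV-PyMT tumors Ptn did not pass the test (0.50, SE 0.37, limma adjusted p = 1), and in 4T1 tumors it did not pass the filter on low values; an antibody that binds the protein need not change its RNA. That filter asked for 3 of the 6 samples of an experiment to reach a value of 1, taken off the log scale and less the lowest value in that sample.

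The genomic context of the 4 genes differs. On GRCm38, Ppargc1a (ENSMUSG00000029167) spans chr5:51454250-51567726 on the minus strand, Pdpr (ENSMUSG00000033624) chr8:111094630-111137074 on the plus strand, Kcnq5 (ENSMUSG00000028033) chr1:21398403-21961942 on the minus strand and Gfod1 (ENSMUSG00000051335) chr13:43195245-43304172 on the minus strand. The spans run from 42.4 kb for Pdpr to 563.5 kb for Kcnq5. All are protein coding, and the 1 measured gene that overlaps any of them is Gm7658, a processed pseudogene on the same strand as Kcnq5. Gm7658 did not fall with Kcnq5: its log2 change was 0.21 (SE 0.26, limma adjusted p = 0.608) in E0771 and 0.52 (SE 0.27, limma adjusted p = 0.139) in E0771-LG.

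Promoter sequences were matched in RefSeq (GRCm38.p6) for 3 of the 4 genes, Ppargc1a, Pdpr and Kcnq5, and are shown for these. Each runs 5′ to 3′ on the strand of the gene, from 250 bases before to 50 bases after its start, and capitals mark TGACG on either strand, the core of the cAMP response element that CREB-type factors bind.
Ppargc1a, chr5:51567676-51567975, minus strand: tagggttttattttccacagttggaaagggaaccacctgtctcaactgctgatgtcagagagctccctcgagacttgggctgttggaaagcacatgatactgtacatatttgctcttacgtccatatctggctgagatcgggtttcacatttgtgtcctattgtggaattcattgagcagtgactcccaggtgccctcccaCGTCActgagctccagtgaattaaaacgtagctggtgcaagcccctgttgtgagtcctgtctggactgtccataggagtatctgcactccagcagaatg
Pdpr, chr8:111094495-111094794, plus strand: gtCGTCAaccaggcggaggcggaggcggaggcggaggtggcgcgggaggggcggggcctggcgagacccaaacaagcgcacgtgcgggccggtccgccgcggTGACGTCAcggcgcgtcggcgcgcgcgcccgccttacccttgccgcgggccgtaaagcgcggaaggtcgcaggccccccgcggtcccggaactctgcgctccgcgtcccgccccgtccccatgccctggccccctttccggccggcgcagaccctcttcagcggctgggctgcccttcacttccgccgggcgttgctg
Kcnq5, chr1:21961893-21962192, minus strand: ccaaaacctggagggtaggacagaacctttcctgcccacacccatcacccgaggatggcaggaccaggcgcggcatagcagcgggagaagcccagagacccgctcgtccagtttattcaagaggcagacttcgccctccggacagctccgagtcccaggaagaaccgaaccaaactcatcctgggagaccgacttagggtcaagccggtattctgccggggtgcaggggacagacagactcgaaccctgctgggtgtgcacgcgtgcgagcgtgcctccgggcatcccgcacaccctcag
The windows differ in base composition, with a GC content of 48.7% for Ppargc1a, 76.7% for Pdpr and 62.7% for this start of Kcnq5, against a median of 52.7% over all promoters. TGACG occurred once in Ppargc1a, 49 bases before the start. In Pdpr it occurred at 248 bases before the start and, on both strands with overlap, within the full palindrome TGACGTCA at 148 bases before the start. Neither window of Kcnq5, which has a second RefSeq start, held it. Over all 32851 promoters of this length, 20.8% held TGACG and 1.79% held TGACGTCA. None of the windows of these genes held the AP-1 letters TGANTCA (7.81% of all promoters), the estrogen-related receptor letters TNAAGGTCA (1.28%) or the NF-kappa-B consensus (8.46%). These are matches of letters, not binding sites.

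Ppargc1a was lower after knockdown in E0771-LG cells and was barely detected in E0771 cells. In E0771-LG shCtrl cells its values were 3.79, 4.30 and 4.19, and in shPTN cells 1.42, 0.71 and 1.51, which correspond to 238, 386 and 340 reads against 56, 29 and 49. The groups were far apart, and the description of the selecting contrast is a log2 change of −2.88 (SE 0.27), to 13.6% of the control level. In E0771 the gene was near the limit of detection, with values of −1.02, −1.45 and −2.73 (8, 7 and 2 reads) in shCtrl cells and −0.06, −0.78 and −0.21 (18, 10 and 13 reads) in shPTN cells. It did not pass the filter on low values there. The 3 shPTN samples lay above the 3 shCtrl samples, the opposite order to E0771-LG, with a ratio of CPM of 2.47 (95% exact interval 1.37 to 4.64, counting error only) and an exact permutation p of 0.1, the smallest that 3 against 3 samples allow. The share of all genes with this order in E0771 was not counted. Without the filter on low values limma gave an adjusted p of 0.114 for the Ppargc1a difference. Ppargc1a therefore has no tested change in E0771.

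In tumors Ppargc1a varied more between animals than between treatments. MMTV-PyMT tumors were at 0.97, 0.84 and 3.94 (37, 34 and 287 reads) under C44 and at 2.01, 0.82 and 3.13 (65, 32 and 142 reads) under 3B10. Replicate 3 of each group was high and the groups overlapped throughout. The log2 difference was 0.07 (95% interval −2.12 to 2.26, limma adjusted p = 1, exact permutation p = 1). The interval holds changes of over 2 log2 units either way. The sign turned without 3B10 replicate 3 (−0.50), C44 replicate 1 (−0.40) or C44 replicate 2 (−0.47). In 4T1 tumors the gene was at the lowest value of the sample in 4 of the 6 tumors and 0.013 above it or less in the others, so it was not tested and no fold is given.

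Pdpr was lower after knockdown in both lines. In E0771-LG its values were 5.95, 5.39 and 5.62 in shCtrl cells and 3.13, 3.01 and 2.98 in shPTN cells, a log2 change of −2.61 (SE 0.16) to 16.3% of control that belongs to the selecting contrast. In E0771, which the selection did not use, the values were 5.27, 5.48 and 5.51 in shCtrl cells and 4.79, 4.95 and 4.85 in shPTN cells. All 3 shPTN samples lay below all 3 shCtrl samples. The log2 change was −0.55 (SE 0.11, 95% interval −0.80 to −0.30, limma adjusted p = 0.00654), to 68.3% of control, with the exact permutation p at 0.1.

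In MMTV-PyMT tumors Pdpr was at 3.15, 4.02 and 4.38 under C44 and at 4.61, 4.12 and 3.91 under 3B10. The groups overlapped, and the difference of 0.36 (95% interval −0.43 to 1.15) did not pass the test (limma adjusted p = 1, exact permutation p = 0.5). Over single tumors left out it ran from 0.015 (without C44 replicate 1) to 0.63 (without C44 replicate 3). In 4T1 tumors, on their own scale, it was at 3.11, 3.59 and 1.85 under C44 and at 1.61, 2.60 and 2.50 under 3B10. C44 replicate 3 lay among the 3B10 tumors, and the difference of −0.61 (95% interval −1.71 to 0.48) did not pass the test (limma adjusted p = 0.918, exact permutation p = 0.4). It was −1.11 without C44 replicate 3 (limma adjusted p = 0.383) and −0.24 without C44 replicate 2 (limma adjusted p = 1).

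Gfod1 was also lower in both lines and had the smallest change of the 4 in E0771-LG. Its E0771-LG values were 6.68, 6.72 and 6.74 in shCtrl cells and 5.32, 5.08 and 5.25 in shPTN cells, a log2 change of −1.49 (SE 0.10) to 35.5% of control in the selecting contrast. In E0771 they were 5.46, 5.76 and 5.53 in shCtrl cells and 4.88, 5.31 and 5.27 in shPTN cells, again with no overlap. The log2 change was −0.43 (SE 0.14, 95% interval −0.74 to −0.13), which passed the threshold narrowly (limma adjusted p = 0.0474, exact permutation p = 0.1). This call did not hold when shCtrl replicate 1, 2 or 3 or shPTN replicate 1 or 3 was left out, with limma adjusted p of 0.0551, 0.170, 0.103, 0.116 and 0.0824 in that order, while the direction held each time. It was also lost with eBayes without robust (limma adjusted p = 0.0503), median-of-ratios scaling (limma adjusted p = 0.0645), quantile normalization (limma adjusted p = 0.0766) and no filter (limma adjusted p = 0.0847).

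In tumors Gfod1 did not pass the test. MMTV-PyMT values were 2.64, 3.16 and 2.75 under C44 and 2.93, 2.03 and 3.05 under 3B10, a difference of −0.18 (95% interval −0.97 to 0.61, limma adjusted p = 1, exact permutation p = 0.8). 4T1 values were 3.46, 3.44 and 2.14 under C44 and 2.38, 2.75 and 3.24 under 3B10, a difference of −0.22 (95% interval −1.15 to 0.70, limma adjusted p = 0.973, exact permutation p = 0.8). As with Pdpr, C44 replicate 3 was the low sample of the 4T1 controls. The sign turned without 3B10 replicate 2 in MMTV-PyMT (0.14), and without C44 replicate 1 the 4T1 difference was 0.00029.

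Kcnq5 was lower after knockdown in both lines. In E0771-LG its values were 6.11, 5.92 and 6.09 in shCtrl cells and 4.34, 4.12 and 4.21 in shPTN cells, a log2 change of −1.82 (SE 0.12) to 28.4% of control in the selecting contrast. In E0771 they were 4.37, 4.61 and 4.32 in shCtrl cells and 2.39, 2.51 and 2.82 in shPTN cells. The groups were separated by well over the spread of either, and the log2 change was −1.86 (SE 0.17, 95% interval −2.24 to −1.48, limma adjusted p = 8.46e-05, exact permutation p = 0.1), to 27.6% of control. MMTV-PyMT tumors held 0 reads of Kcnq5 in all 3 C44 samples and 0, 0 and 2 reads in 3B10 samples, and all 4T1 tumors were within 0.133 of the lowest value of the sample on the linear scale. A response of Kcnq5 to 3B10 could thus not be measured in tumors.

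**Figure D1:**
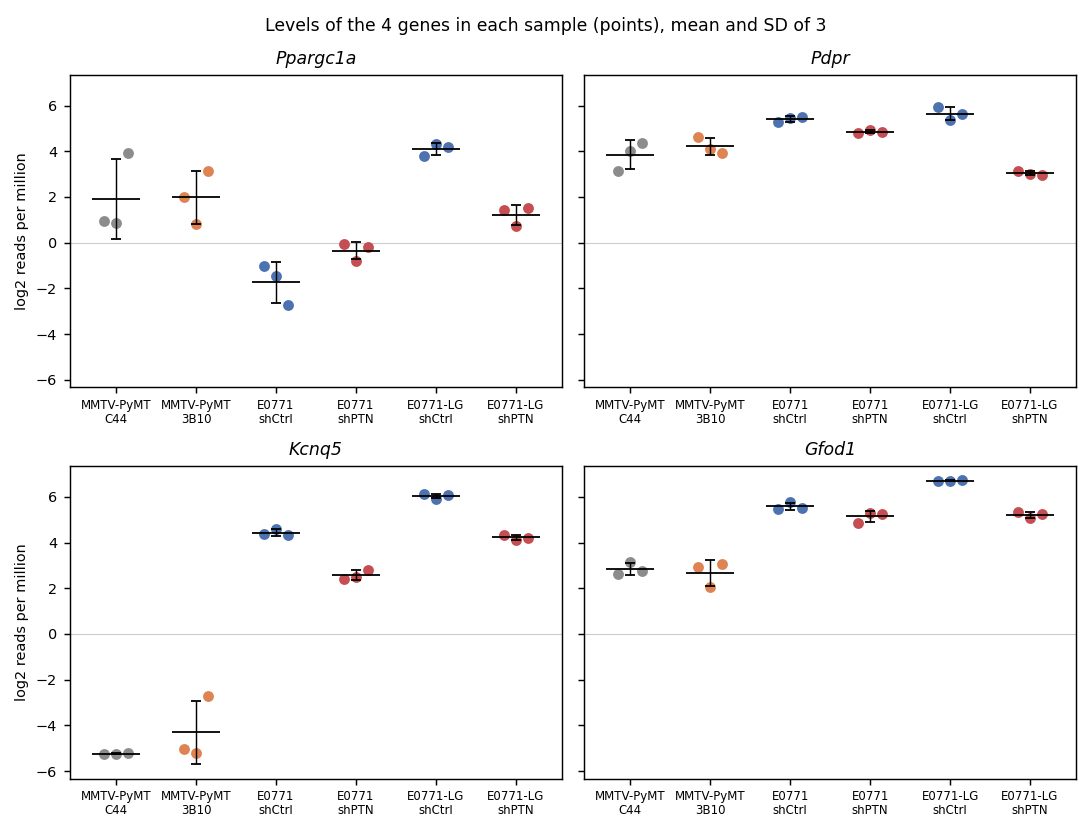
Levels of the 4 genes as log2 CPM in each sample of the MMTV-PyMT, E0771 and E0771-LG groups. Points are samples, lines and bars the mean and SD of 3; Kcnq5 values near −5 are samples with 0 reads. Pdpr, Kcnq5 and Gfod1 were lower in shPTN than in shCtrl samples of both lines, whereas Ppargc1a was low in E0771 and fell in E0771-LG.

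Of the 3 genes that passed the filter in E0771, 3 were called lower by limma, where 11.7% of the 10394 genes tested were called lower and 22.5% had all shPTN samples below all shCtrl samples. The fourth, Ppargc1a, did not pass the filter. In E0771-LG, where the genes were chosen, 4 passed the filter, 22.1% of 10405 genes were called lower and 26.7% had all shPTN samples below all shCtrl samples, and nothing is read from the members' own count. Among 2270 genes called lower in E0771-LG and tested in E0771, 21.4% were also called lower in E0771, and 4.74% of the 10223 genes tested in both lines were called lower in both. The count of E0771 calls was 2140 and fell to 1268, 1171 and 1238 without shCtrl replicate 2, shCtrl replicate 3 or shPTN replicate 3. In tumors 3 of the 4 genes passed the filter in MMTV-PyMT and 2 in 4T1, and limma called 0% of 11361 and 0% of 11467 genes. At an unadjusted p under 0.05 limma had 134 lower and 173 higher genes in MMTV-PyMT and 355 lower and 364 higher in 4T1. With median-of-ratios scaling these were 188 lower and 105 higher in MMTV-PyMT and 433 and 381 in 4T1. With quantile normalization they were 156 lower and 124 higher in MMTV-PyMT and 419 and 416 in 4T1. Voom on recovered reads also called 0 genes in MMTV-PyMT, and leaving out 3B10 replicate 1 gave 2 calls in 4T1. In these bulk tumors fewer cells of a type and less RNA per cell cannot be told apart.

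**Figure D2:**
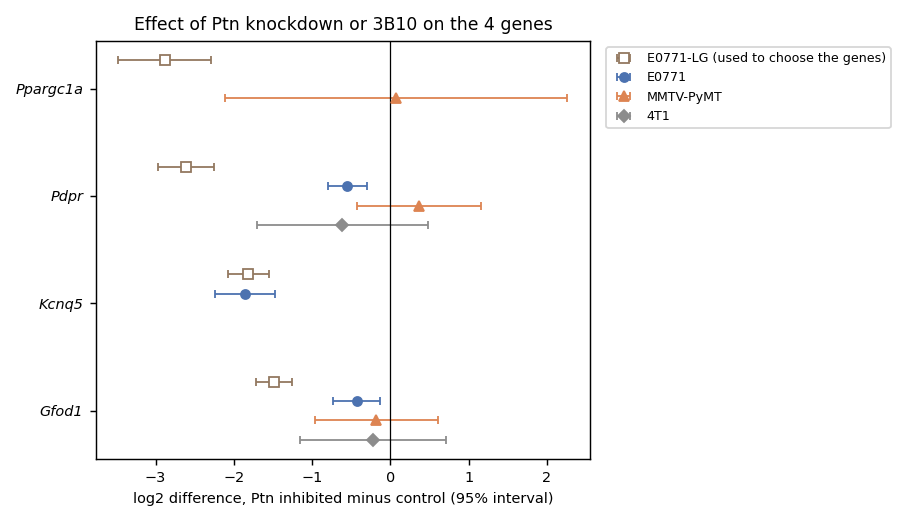
Log2 difference between Ptn-inhibited and control samples for each gene, with 95% intervals from limma, in the experiments where the gene passed the filter on low values. Open squares are E0771-LG, the comparison the genes were selected on; E0771 intervals of Pdpr, Kcnq5 and Gfod1 lie below 0, and all tumor intervals include 0.

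The line difference of the knockdown effect contains the selecting contrast and is given without a test. The E0771-LG change minus the E0771 change was −2.06 (SE 0.20) for Pdpr, −1.06 (SE 0.18) for Gfod1, 0.04 (SE 0.20) for Kcnq5 and −4.26 (SE 0.63) for Ppargc1a, whose E0771 values rest on few reads. Since the genes were chosen for a large fall in E0771-LG, nothing is read from the direction of these differences. Over all genes, 34.0% of 10600 had a knockdown effect that differed between the lines by limma.

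The control cells of the lines differed as well, also as a description. E0771-LG shCtrl exceeded E0771 shCtrl by 5.83 (SE 0.45) in log2 level for Ppargc1a, by 1.61 (SE 0.14) for Kcnq5, by 1.13 (SE 0.12) for Gfod1 and by 0.24 (SE 0.14) for Pdpr. After knockdown the E0771-LG level exceeded the E0771 level by 1.56 (SE 0.45) for Ppargc1a, by 1.65 (SE 0.14) for Kcnq5 and by 0.07 (SE 0.12) for Gfod1, and for Pdpr the difference was −1.83 (SE 0.14). These levels include the values that chose the genes, and nothing is read from them.

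**Figure D3:**
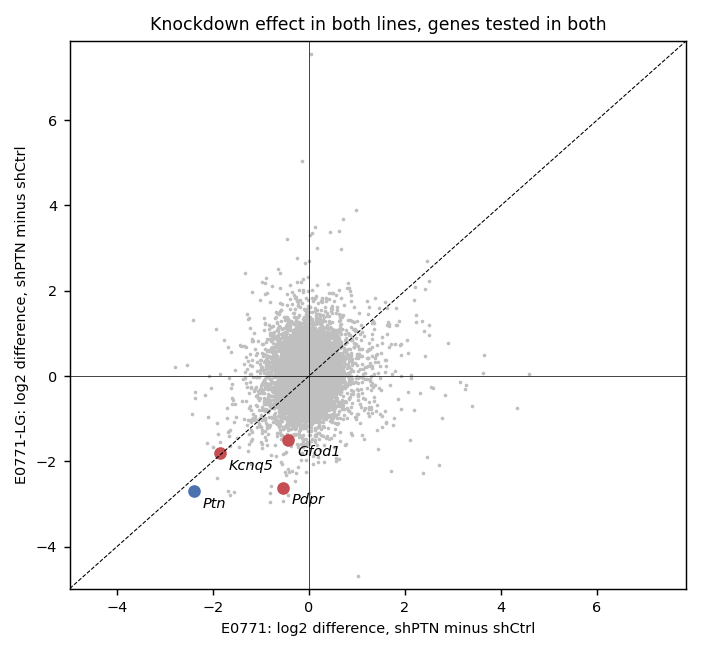
Knockdown effect in E0771 (horizontal) and E0771-LG (vertical) as log2 differences for the 10223 genes tested in both lines (grey), with Pdpr, Kcnq5 and Gfod1 in red and Ptn in blue; the dashed line marks equal effects. Kcnq5 lies on that line at −1.86 and −1.82, and Pdpr and Gfod1 lie below it. Ppargc1a was not tested in E0771 and is not drawn.

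The order of mean levels over the 6 groups on the common scale was as follows. For Ppargc1a E0771-LG shCtrl (4.09) was highest, then MMTV-PyMT 3B10 (1.99), MMTV-PyMT C44 (1.92) and E0771-LG shPTN (1.21), whose ranges overlapped one with the next, then E0771 shPTN (−0.35) and E0771 shCtrl (−1.73). For Pdpr the order was E0771-LG shCtrl (5.65) and E0771 shCtrl (5.42), which overlapped, E0771 shPTN (4.87), MMTV-PyMT 3B10 (4.21) and C44 (3.85), which overlapped, and E0771-LG shPTN (3.04). For Gfod1 it was E0771-LG shCtrl (6.71), E0771 shCtrl (5.58), E0771-LG shPTN (5.22) and E0771 shPTN (5.15), of which the last pair overlapped, and then the MMTV-PyMT groups under C44 (2.85) and 3B10 (2.67), which also overlapped. For Kcnq5 it was E0771-LG shCtrl (6.04), E0771 shCtrl (4.43) and E0771-LG shPTN (4.22), of which the last pair overlapped, E0771 shPTN (2.57), and the MMTV-PyMT tumors at or near 0 reads. Per kilobase of annotated exon, the E0771-LG shCtrl level was 14.5 CPM for Gfod1, 10.1 for Pdpr, 8.56 for Kcnq5 and 2.62 for Ppargc1a.

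The places of the genes in the order of falls in E0771-LG follow from how they were chosen and are given only to show which genes lie beside them. In that order, over genes with a limma adjusted p under 0.05 and a mean of at least 1, Ppargc1a was number 2 of 2268, Pdpr number 7, Kcnq5 number 39 and Gfod1 number 73. Ppargc1a (−2.88) stood between Col1a1 (−4.68) and Gbp2 (−2.80), and Pdpr (−2.61) between Cmpk2 (−2.70) and Fabp4 (−2.46). Kcnq5 (−1.82) stood between Mical2 (−1.82) and Pggt1b (−1.80), and Gfod1 (−1.49) between Sipa1l3 (−1.50) and Islr (−1.49).

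The other genes of the PGC-1 axis, a list of coactivators, nuclear receptors, mitochondrial transcription factors and upstream kinases, were counted in each line. Of 38 tested in E0771-LG, limma called 13 lower and 4 higher, where 22.1% and 24.3% of all genes were called lower and higher; the median log2 change was −0.15 against 0.05 for all genes. Mef2a, a transcription factor that acts on the Ppargc1a promoter in muscle, fell by 1.01 (SE 0.10, limma adjusted p = 5.12e-05). The retinoid X receptor gene Rxra fell by 0.81 (SE 0.12, limma adjusted p = 0.000388) and Foxo3 fell by 0.70 (SE 0.10, limma adjusted p = 0.000353). Prkab2, a regulatory subunit of AMP-activated kinase, rose by 1.26 (SE 0.19, limma adjusted p = 0.000418). Of 37 tested in E0771, where 11.7% and 8.89% of all genes were called lower and higher, 2 were lower (Ncoa3, −0.45, and Polrmt, −0.31) and 1 was higher (Prkab1, 0.34). Ncoa3, a nuclear receptor coactivator, was also lower in E0771-LG (−0.64, SE 0.12, limma adjusted p = 0.00178). With median-of-ratios scaling the E0771 counts were 1 lower and 2 higher, and with quantile normalization they were 1 and 2 in E0771 and 11 and 6 in E0771-LG.

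A related coactivator and a partner receptor of PGC-1alpha were followed in each line, without a test against Ppargc1a. Pprc1, the related coactivator, had a log2 change of −0.45 (SE 0.10, limma adjusted p = 0.00320) in E0771-LG and 0.04 (SE 0.09, limma adjusted p = 0.781) in E0771. Esrra, the estrogen-related receptor that PGC-1alpha coactivates, did not pass the test in either line (0.25, SE 0.14, limma adjusted p = 0.169 in E0771-LG and −0.27, SE 0.15, limma adjusted p = 0.229 in E0771). Ppargc1b was not analysed here.

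Genes known to respond to PGC-1alpha went both ways in E0771-LG. Of 42 tested, 5 were called lower and 12 higher by limma, where 22.1% and 24.3% of all genes were, with a median of 0.17 against 0.05 for all genes; with quantile normalization 5 were lower and 15 higher, and with median-of-ratios scaling 8 and 11. Cd36, which encodes a fatty acid transporter and is among the 5 called lower, had a log2 change of −4.13 (SE 0.47). It passed the filter on low values only through its shCtrl samples, so the change is given as a description. Its mean level in shPTN cells (−1.33, SD 0.78) is near the limit of detection, so the size of this change is uncertain, and it was not tested in E0771 for its low level there. Atp5a1, a subunit of ATP synthase, fell by 0.62 (SE 0.08, limma adjusted p = 0.000215), whereas Atp5b, another subunit, rose by 0.48 (SE 0.07, limma adjusted p = 0.000495). Cox6a1 of cytochrome oxidase rose by 0.73 (SE 0.11, limma adjusted p = 0.000511). In E0771 5 of 42 were lower and 2 higher, where 11.7% and 8.89% of all genes were. The lower ones included Mfn1 for mitochondrial fusion (−0.59, SE 0.10, limma adjusted p = 0.00241) and Acadl for fatty acid oxidation (−0.45, SE 0.11, limma adjusted p = 0.0145). Sod2 was also lower (−0.30, SE 0.08, limma adjusted p = 0.0213). The higher ones included Cpt1a for fatty acid import (0.42, SE 0.11, limma adjusted p = 0.0241). Mfn1 was also lower in E0771-LG (−0.54, SE 0.11, limma adjusted p = 0.00219), while Acadl was higher there (0.89, SE 0.16, limma adjusted p = 0.00110).

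Among the 18 tested genes of the pyruvate dehydrogenase complex, its regulators and pyruvate metabolism, limma called 5 lower and 3 higher in E0771-LG, where 22.1% and 24.3% of all genes were called lower and higher, so these counts are near the background. In E0771 limma called 4 of the 18 lower and 3 higher, larger shares than the 11.7% and 8.89% of all genes. The difference from those shares was not tested. Pdp1 and Pdp2 encode catalytic subunits of pyruvate dehydrogenase phosphatase. Pdp1 had a log2 change of −0.50 (SE 0.13, limma adjusted p = 0.00907) in E0771-LG and −0.16 (SE 0.11, limma adjusted p = 0.324) in E0771. Pdp2 had −0.93 (SE 0.13, limma adjusted p = 0.000276) in E0771-LG and −0.27 (SE 0.13, limma adjusted p = 0.175) in E0771. The opposing kinases were also lower in E0771-LG for Pdk1 (−0.63, SE 0.16, limma adjusted p = 0.00771) and Pdk3 (−0.36, SE 0.11, limma adjusted p = 0.0225), while Pdk2 did not pass the test (0.89, SE 0.58, limma adjusted p = 0.225). In E0771 Pdk1, Pdk2 and Pdk3 did not pass the test, with limma adjusted p of 0.233, 0.270 and 0.899. Pdk4 was not analysed here.

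Of the other enzymes of this list, Pcx, Pdhb and Mpc2 had a knockdown effect that differed between the lines by the limma interaction test (adjusted p = 0.000102, 0.00062 and 0.038 in that order). Pcx, pyruvate carboxylase, fell by 1.48 (SE 0.21, limma adjusted p = 0.000673) in E0771-LG and rose by 0.42 (SE 0.08, limma adjusted p = 0.00508) in E0771. Pdhb, a subunit of the complex itself, rose by 0.51 (SE 0.09, limma adjusted p = 0.00146) in E0771-LG and fell by 0.40 (SE 0.12, limma adjusted p = 0.0328) in E0771. Ldhb, a lactate dehydrogenase subunit, is among the genes called higher in both lines. Its log2 change was 2.71 (SE 0.56) in E0771-LG and 2.46 (SE 0.31) in E0771. The control levels were low, −0.28 in E0771-LG and 0.11 in E0771. In neither line did its shCtrl samples alone pass the filter on low values, so these changes are given as a description. Mpc2 was called in E0771-LG (0.72), and Dlat (−0.39) and Gpt2 (−0.65) were called in E0771. For Ldhb, Dlat and Gpt2 the difference between the lines did not pass the limma interaction test (adjusted p = 0.805, 0.2 and 0.0962 in that order).

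Of 41 other genes for voltage-gated potassium channels, their subunits and partners, 7 were measured and 6 tested in each line, and limma called 2 lower and 1 higher in each, where 11.7% and 8.89% of all genes were called lower and higher in E0771 and 22.1% and 24.3% in E0771-LG; with quantile normalization E0771 had 2 lower and 2 higher. Calm3, 1 of the genes for calmodulin, a constitutive partner of KCNQ channels, fell by 0.40 (SE 0.07, limma adjusted p = 0.00409) in E0771 and fell by 0.71 (SE 0.09, limma adjusted p = 0.000192) in E0771-LG. Calm2 rose by 0.49 (SE 0.09, limma adjusted p = 0.00161) in E0771-LG and did not pass the test in E0771 (0.14, SE 0.10, limma adjusted p = 0.329). The channel gene Kcnh2 fell by 0.48 (SE 0.09, limma adjusted p = 0.00544) in E0771 and had −0.06 (SE 0.14, limma adjusted p = 0.730) in E0771-LG. Slc5a3, a myo-inositol transporter that associates with KCNQ channels, rose by 0.64 (SE 0.10, limma adjusted p = 0.00194) in E0771 and fell by 0.42 (SE 0.14, limma adjusted p = 0.0274) in E0771-LG.

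Of the oxidoreductase family of Gfod1, the 2 other measured genes were Gfod2 and Blvra, biliverdin reductase. Gfod2 did not pass the test in E0771-LG (−0.19, SE 0.16, limma adjusted p = 0.352) or E0771 (−0.13, SE 0.15, limma adjusted p = 0.597). Blvra rose by 0.67 (SE 0.13, limma adjusted p = 0.00209) in E0771-LG and did not pass the test in E0771 (−0.24, SE 0.10, limma adjusted p = 0.120).

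In tumors limma called 0 genes of these lists. At an unadjusted p under 0.05 there were 0 in the PGC-1 axis and 0 in the pyruvate dehydrogenase list in either model. Among the PGC-1alpha-responsive genes there was 1 in 4T1, Idh3a (0.30, SE 0.12, limma adjusted p = 0.771), and 0 in MMTV-PyMT. Gfod2 had an unadjusted p under 0.05 in both models, at 0.44 (SE 0.17, limma adjusted p = 0.741) in 4T1 and 0.48 (SE 0.17, limma adjusted p = 1) in MMTV-PyMT.

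**Figure D4:**
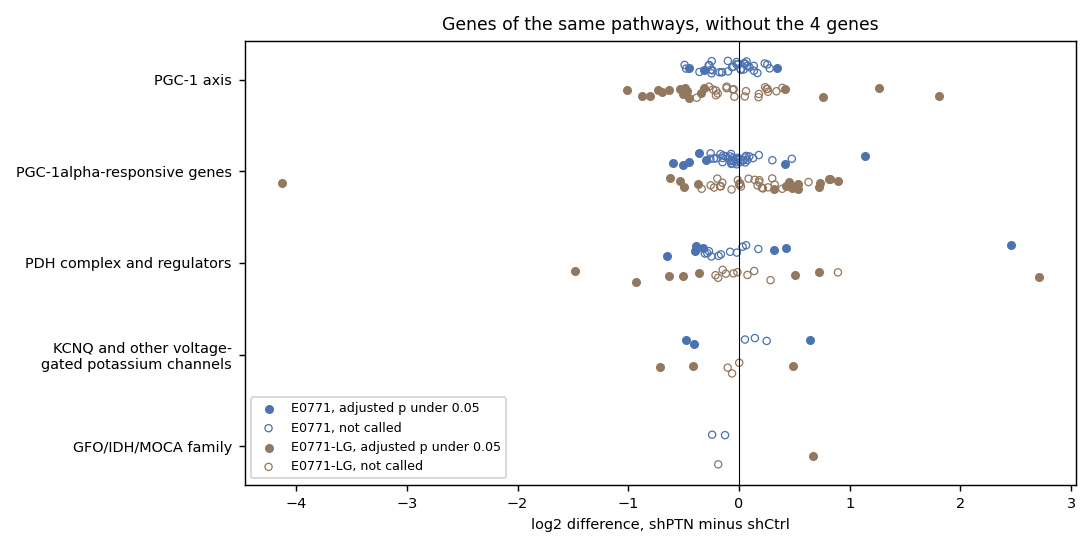
Log2 difference between shPTN and shCtrl cells for the other genes of each list in E0771 (blue) and E0771-LG (brown); filled points have a limma adjusted p under 0.05, open points do not. The point at −4.13 is Cd36 and those at 2.46 and 2.71 are Ldhb; PGC-1alpha-responsive genes lie on both sides of 0.

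Marker genes of cell types were summed per sample off the log scale, in CPM except for 4T1, whose sums are on the scale of that experiment and are compared only with each other. Both cell lines lacked most epithelial keratins: of 8 epithelial genes, 2 reached 1 in a shCtrl sample of either line, with Krt8 most abundant and Krt19 and Krt5 at 0 reads. The epithelial sum was 158, 204 and 164 in E0771-LG shCtrl and 424, 565 and 516 in E0771-LG shPTN cells, higher in all shPTN than in all shCtrl samples, with 3 of 3 tested genes called higher by limma. Only 2 epithelial genes reached 1 in an E0771-LG shCtrl sample, against 3 in shPTN cells. Not all of those tested thus passed the filter without the shPTN samples, and nothing is read from this count. Over all genes 24.3% were called higher and 22.1% lower in E0771-LG, and 8.89% and 11.7% in E0771, which holds for the other marker counts too. In E0771 the epithelial sum was 99.3, 114 and 107 in shCtrl and 115, 99.6 and 109 in shPTN cells. The neuronal sum, from 2 of 9 listed genes and carried by Tubb3, was 43.0, 53.4 and 45.2 in E0771-LG shCtrl and 71.6, 108 and 110 in shPTN cells. Map2, the other measured neuronal gene, was at 0 reads in E0771-LG. The fibroblast sum was 74.9, 101 and 86.3 in E0771 shCtrl and 331, 293 and 330 in E0771 shPTN cells, with 5 of 5 tested genes called higher, and 92.1, 145 and 107 against 58.3, 66.2 and 73.6 in E0771-LG, with 2 of 6 called lower and 1 higher. The adipocyte sum, from 3 of 11 listed genes, was 18.3, 28.1 and 19.5 in E0771-LG shCtrl and 7.91, 14.4 and 12.9 in shPTN cells, and Fabp4 was most abundant in the former. Endothelial sums were 8.38, 10.2 and 7.53 against 19.8, 22.2 and 20.3 in E0771-LG, with Egfl7 most abundant and Emcn and Cldn5 at 0 reads in the shCtrl cells. Leukocyte sums were 16.7, 28.1 and 23.4 in E0771 shCtrl and 51.6, 32.2 and 41.5 in shPTN cells, with 1 of 3 tested genes called higher, and 6.94, 11.1 and 11.1 against 13.4, 24.2 and 20.8 in E0771-LG, with 2 of 3 called higher. Tyrobp and S100a9 were at 0 reads in all cell groups. Skeletal muscle sums were 5.97, 7.39 and 6.86 in E0771 shCtrl and 15.1, 14.1 and 15.4 in E0771 shPTN cells, with Actn3 most abundant, Myh4 at 0 reads and 1 of 2 tested genes called higher. These shPTN samples were also those with more reads of Ppargc1a and with the higher fibroblast and leukocyte sums, so this is not particular to the muscle markers. In E0771-LG the skeletal muscle sums were 5.38, 4.08 and 2.96 against 3.31, 3.43 and 3.50, which overlap, with 1 of 2 called lower. The part of these markers in the changes of the 4 genes was not tested.

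In tumors all 8 epithelial genes were measured. In MMTV-PyMT their sum was 5728, 5535 and 3811 under C44 and 4504, 4959 and 4040 under 3B10. Replicate 3, which held the most Ppargc1a reads, was the lowest of each group. Muscle and fat, which express Ppargc1a strongly, were also followed by their markers. The skeletal muscle sum, from 9 of 13 listed genes with Mb most abundant and Tnnc2 at 0 reads, was 52.4, 25.3 and 20.4 under C44 and 20.0, 21.9 and 17.8 under 3B10. The adipocyte sum, with Lipe most abundant, was 30.5, 32.7 and 19.5 under C44 and 86.5, 31.1 and 30.6 under 3B10. Replicate 3 of each group was the lowest of its group in both sums, and 3B10 replicate 1, with 65 reads of Ppargc1a against 32 in replicate 2, had the highest adipocyte sum. These replicates also had the lowest leukocyte sums of their groups, 489 under C44 against 871 and 976, and 441 under 3B10 against 851 and 552, with Cd74 most abundant, and the lowest endothelial sums (96.1 and 103). The C44 replicate 3 had the lowest fibroblast sum, 1195 against 2260 and 3437, and in 3B10 tumors the sums were 2250, 1693 and 1715. In 4T1 tumors the epithelial sum was 3293, 3593 and 3570 under C44 and 5083, 4750 and 5266 under 3B10, with no overlap. The leukocyte sum there was 15607, 14195 and 16783 under C44 and 9596, 11459 and 6889 under 3B10, with Lyz2 most abundant, and the muscle sum was 35.8, 32.5 and 65.1 against 91.8, 274 and 454. The part of these differences in the values of Ppargc1a, Pdpr and Gfod1 was not tested.

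The genes most like each member over the 12 cell samples were found by Pearson's r among genes tested in both lines. The 12 samples fall into 4 groups of 3, which include the selecting contrast, so that r mainly reflects the order of the group means and is a description. For Ppargc1a they were Arhgdia (r = 0.975), Myo19 (0.973) and Ube2z (0.971). For Pdpr they were Ccny (0.989), Flrt2 (0.988) and Rab3gap1 (0.983), for Kcnq5 Rrm1 (0.986), Eaf1 (0.985) and Cwc25 (0.984), and for Gfod1 Naa25 (0.977), Itpripl2 (0.974) and Rnf125 (0.973). For example, Ccny changed by −1.36 in E0771-LG and −0.32 in E0771, and Rrm1 by −1.12 and −1.03. Among the members themselves r was highest for Kcnq5 with Gfod1 (0.881) and lowest for Ppargc1a with Pdpr (0.0356).

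The nearest measured genes on either side of the members went both ways. Of the 16 neighbours, 2 on each side of each member, limma called 6 lower and 4 higher in E0771-LG, where 22.1% and 24.3% of all genes were called lower and higher. In E0771 limma called 2 lower and 4 higher, where 11.7% and 8.89% of all genes were. Beside Pdpr, Glg1 at 17.3 kb fell by 0.99 (SE 0.13, limma adjusted p = 0.000267) in E0771-LG and had −0.08 (SE 0.11, limma adjusted p = 0.663) in E0771, and Aars at 37.0 kb did not pass the test in E0771-LG (0.07, SE 0.09, limma adjusted p = 0.533) and rose by 0.37 (SE 0.09, limma adjusted p = 0.016) in E0771. The other neighbours of Pdpr were also lower in E0771-LG, Ddx19b at −0.57 (SE 0.14, limma adjusted p = 0.00817) and Rfwd3 at −0.91 (SE 0.12, limma adjusted p = 0.00026), and Rfwd3 was higher in E0771 (0.37, SE 0.08, limma adjusted p = 0.00935). Beside Gfod1, Tbc1d7 at 23.7 kb did not pass the test in either line, and Phactr1 at 56.7 kb fell by 0.82 (SE 0.16, limma adjusted p = 0.00209) in E0771-LG and rose by 0.51 (SE 0.12, limma adjusted p = 0.0131) in E0771. Beside Kcnq5 the nearest was Tram2 at 319.2 kb (−0.88, SE 0.14, limma adjusted p = 0.000625 in E0771-LG), and beside Ppargc1a it was Dhx15 at 582.5 kb (−0.59, SE 0.12, limma adjusted p = 0.00235 in E0771-LG). Sod3, at 796.1 kb from Ppargc1a, rose by 3.63 (SE 0.31, limma adjusted p = 5.27e-05) in E0771. The 4 neighbours called higher in E0771-LG were Paqr8 (1.01) and Ogfrl1 (0.75) beside Kcnq5, Nol7 (0.61) beside Gfod1 and Pacrgl (0.58) beside Ppargc1a. The 2 called lower in E0771 were Ogfrl1 (−0.95) and Adgra3 (−0.48), the latter beside Ppargc1a. Smap1, beside Kcnq5, and Sirt5, beside Gfod1, did not pass the test in either line.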

How the data were processed

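RNA from 3 biological replicates per group was sequenced as paired reads; the authors aligned with HISAT2 to mm10, counted with featureCounts and tested with edgeR, with no versions given in the processing notes. The authors deposited log2 values for 12091 genes in 24 samples. In 18 samples these are log2 CPM with an offset of 0.5 reads: all values (100%) came out as whole reads within 0.05. In the 6 samples of 4T1 tumors at most 11.3% did, and depth is unknown. Fits used the deposited log2 values in limma 3.58.1 (R 4.3.3; lmFit, eBayes with trend and robust), each experiment on its own 6 samples, two-sided, with Benjamini-Hochberg adjustment over all genes with a value of at least 1, off the log scale and above the lowest of the sample, in at least 3 of 6 samples. The line difference was an interaction over 12 cell samples. Single genes were also compared by an exact two-sided permutation test (Python 3.11.15). limma was run on the deposited values in all experiments, since whole reads were not recovered for 4T1. The fit was tested on simulated data. Alternatives were a replicate block, other filters, pseudocounts of 1 and 0.1, other scalings, eBayes without robust, voom on recovered reads, both lines in one fit, and each sample left out. The 4 genes and all lists were chosen with earlier results of these data known.

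Genes named besides the 4 were: Ptn; from each pathway list, in each cell line up to 4 genes with the smallest p among those with adjusted p under 0.05, and in each tumor experiment up to 2 with the smallest unadjusted p; paralogs and partners whatever their change; 3 genes with the highest r per member; 2 neighbours on each side; and the genes next to each member in the order of falls in E0771-LG. The genes picked in tumors are given in the text where their unadjusted p was under 0.05. Marker genes are named where they were the most abundant of their list or at 0 reads. Gene positions are from GENCODE vM21.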

Additional observations from a re-analysis of the deposited data

Results flagged for a closer look

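Ppargc1a values lay in opposite order in the lines: all 3 shPTN samples lay below all 3 shCtrl samples in E0771-LG and above them in E0771, and the E0771-LG change minus the E0771 change was −4.26 in log2. This difference was not tested, because the gene was chosen on the E0771-LG contrast and held at most 18 reads in any E0771 sample. Over all genes tested in E0771-LG, 26.7% had all shPTN samples below all shCtrl samples. The share with all shPTN samples above in E0771 was not counted, so nothing is read from the opposite order. Among 55 other genes named from the lists and the neighbouring positions, 28 had a knockdown effect that differed between the lines in the limma interaction test (adjusted p from 2.54e-05 to 0.0441), where 34.0% of all genes did. Cd36 passed the filter on low values only through its E0771-LG shCtrl samples, so nothing is read from its call. Many of these genes were named for a small p in 1 of the lines, which favours a difference, so nothing is read from that share. The E0771-LG change minus the E0771 change was below 0 for 16 of them: Cd36 (−4.75, with Cd36 near the limit of detection in E0771), Sod3 (−3.55), Pcx (−1.90), Phactr1 (−1.34), Rfwd3 (−1.28), Slc5a3 (−1.06), Glg1 (−0.92), Rxra (−0.85), Mef2a (−0.76), Tram2 (−0.73), Foxo3 (−0.72), Pdp2 (−0.66), Atp5a1 (−0.60), Dhx15 (−0.53), Pprc1 (−0.49) and Calm3 (−0.31). It was above 0 for 12: Atp5b (0.35), Polrmt (0.36), Sdhb (0.51), Pacrgl (0.63), Mpc2 (0.66), Sirt5 (0.76), Nol7 (0.79), Pdhb (0.91), Blvra (0.91), Acadl (1.35), Prkab2 (1.62) and Ogfrl1 (1.70).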

How the results depend on the processing

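The E0771 falls of Pdpr (−0.62 to −0.50) and Kcnq5 (−1.98 to −1.70) kept direction and stayed past the threshold in the 10 other settings and with each of the 6 samples left out. The E0771 call of Gfod1 was lost with eBayes without robust (−0.43, limma adjusted p = 0.0503), median-of-ratios scaling (−0.40, 0.0645), no filter (−0.43, 0.0847) and quantile normalization (−0.39, 0.0766), and over single samples left out the change ran from −0.51 to −0.30 (limma adjusted p 0.0262 to 0.170); the cause was not tested. With a pseudocount of 1, which shrinks low values, the change of Ppargc1a moved to −2.45 in E0771-LG and 0.44 in E0771. In E0771-LG the 4 changes kept their direction in all alternatives run, and left-out samples took Ppargc1a in E0771 from 0.88 to 1.74. In tumors, where no change was called, leaving out a sample turned the sign of Ppargc1a in MMTV-PyMT (−0.50 to 1.08), of Gfod1 in MMTV-PyMT (−0.37 to 0.14) and of Gfod1 in 4T1 (−0.66 to 0.00029). Over left-out samples the count of called genes ran from 1171 to 2166 in E0771 and from 0 to 2 in 4T1. Same-numbered samples deviated together in no experiment by every pair (r from −0.327 to 0.436), so the numbers were not taken as pairs; with the replicate block limma called 2450 genes in E0771, 5012 in E0771-LG and 0 in each tumor model, Gfod1 in E0771 kept its call (−0.43, limma adjusted p = 0.0134), and no call of the 4 genes changed. Ppargc1a in MMTV-PyMT gave no value with the stricter filter, and voom was not run for 4T1, whose reads were not recovered. Low read counts, at a depth like that of the other samples, limit Ppargc1a in E0771 and Kcnq5 in MMTV-PyMT tumors. In the latter a count of 0 allows up to 3 reads. Kcnq5 in 4T1 tumors is limited by values near the lowest of the sample.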
